A study of Homo sapiens with 8 samples.

Results

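The comparison set 1 RNA library labelled VCaPENZR against 1 library labelled CWR-R1ENZR, both from enzalutamide-resistant (ENZR) prostate cancer cell lines. Enzalutamide is an antiandrogen that blocks androgen receptor signalling. By its label, VCaPENZR is the resistant derivative of VCaP, a line from a vertebral metastasis that carries the TMPRSS2-ERG fusion, and CWR-R1ENZR is the resistant derivative of CWR-R1, a line from a relapsed CWR22 xenograft. Polyadenylated RNA was sequenced as paired ends in 8 libraries: VCaPENZR, CWR-R1ENZR, their sensitive lines VCaP and CWR-R1 (1 library each), and C4-2BENZR and C4-2B (2 libraries each, all 4 carrying a luciferase and GFP transgene that the labels give for no other line). The labels do not state how resistance was selected, whether a resistant line is 1 clone, or whether enzalutamide was present at harvest. Members were the 13910 genes listed in both deposited tables, of 14800 genes in the VCaP table and 14809 in the CWR-R1 table. Each library was rescaled to a sum of 1000000 reads over these genes, and this value is called the level. Ratios compare the same gene in different libraries, so transcript length does not enter them. Levels are not corrected for length, so statements that rank, group or sum genes by level also depend on transcript length.

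The 2 libraries have no replicate, so no test was possible and no p-value is given. A gene was counted where its level was at least 5 in either library, which left 12078 genes. The log2 ratio is log2 of (level + 1) in the library labelled VCaPENZR over (level + 1) in CWR-R1ENZR, and a gene past 2-fold has a log2 ratio of at least 1 or at most -1. Fold values printed beside levels are plain ratios of levels with an exact 95% Clopper-Pearson interval, which covers counting error only and not the spread between cultures. Where a library had no read, the fold is a lower bound against a floor of 3 reads per library, a level of 0.185 in the library labelled VCaPENZR and 0.207 in CWR-R1ENZR.

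The data went against the VCaPENZR label. ERG, the ETS factor that the gene fusion of VCaP drives, had 3 reads in the library labelled VCaPENZR, against 7523 reads in VCaP; the CWR-R1 table does not list it. PLA1A, a phospholipase whose transcript was abundant in VCaP, had a level of 0.185 in the library labelled VCaPENZR, 0 in CWR-R1ENZR, 294 in VCaP and 10.1 in CWR-R1. CHGA, the neuroendocrine granule protein chromogranin A, had no read in the library labelled VCaPENZR, against 1218 reads in VCaP. The cancer-testis antigen MAGEA4 had a level of 306 in the library labelled VCaPENZR, 212 in CWR-R1ENZR, 0 in VCaP and 381 in CWR-R1, and CTAG1B had 161, 115, 0 and 148 in the same order of libraries. Among 142 genes at least 16-fold higher in VCaP than in CWR-R1, the median level was 2.50 in the library labelled VCaPENZR, 5.80 in CWR-R1ENZR, 108 in VCaP and 1.68 in CWR-R1. Among 203 genes at least 16-fold lower in VCaP than in CWR-R1, it was 28.2, 33.1, 0.223 and 46.8. On both gene sets the library labelled VCaPENZR stood with CWR-R1ENZR and CWR-R1, and away from VCaP. The cause was not tested. Every result below therefore describes the library labelled VCaPENZR, not VCaP cells.

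Prostate luminal cells are secretory epithelial cells marked by the keratins KRT8 and KRT18 and by transcription factors such as HOXB13 and FOXA1. Androgen bound to its receptor enters the nucleus and turns on genes such as KLK3 and FKBP5, and antiandrogens block this step. Known routes around the block include the glucocorticoid receptor, which shares many of these targets, growth factor and ERK signalling, and a shift of cell identity towards neuroendocrine or mesenchymal states.

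Of the 12078 counted genes, 479 (3.97%) were at least 2-fold higher and 1235 (10.2%) at least 2-fold lower in the library labelled VCaPENZR than in CWR-R1ENZR. At 4-fold the counts were 80 higher and 206 lower. Across libraries of the same label the same filter and fold gave 12 genes (0.107%) between the C4-2BENZR replicates and 21 genes (0.191%) between the C4-2B replicates, which shows the spread of another line and another table, not of these 2 libraries. Past 2-fold in either direction were 14.2% of counted genes between the resistant pair, 19.8% between the library labelled VCaPENZR and CWR-R1, and 41.7% between the library labelled VCaPENZR and VCaP. CWR-R1ENZR differed from its own sensitive line CWR-R1 in 19.5% of counted genes. Reads in the shared genes numbered 16229458 in the library labelled VCaPENZR and 14477197 in CWR-R1ENZR. The median log2 ratio of all counted genes was -0.15, the shift relative to which single ratios can be read. With median-of-ratios size factors the median moved to 0.02 and the split to 750 higher and 919 lower, and with edgeR's TMM factors to 0.01, 729 and 933. The share of higher genes among those past 2-fold was thus 27.9% with totals, 44.9% with median-of-ratios factors and 43.9% with TMM.

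**Figure D1:**
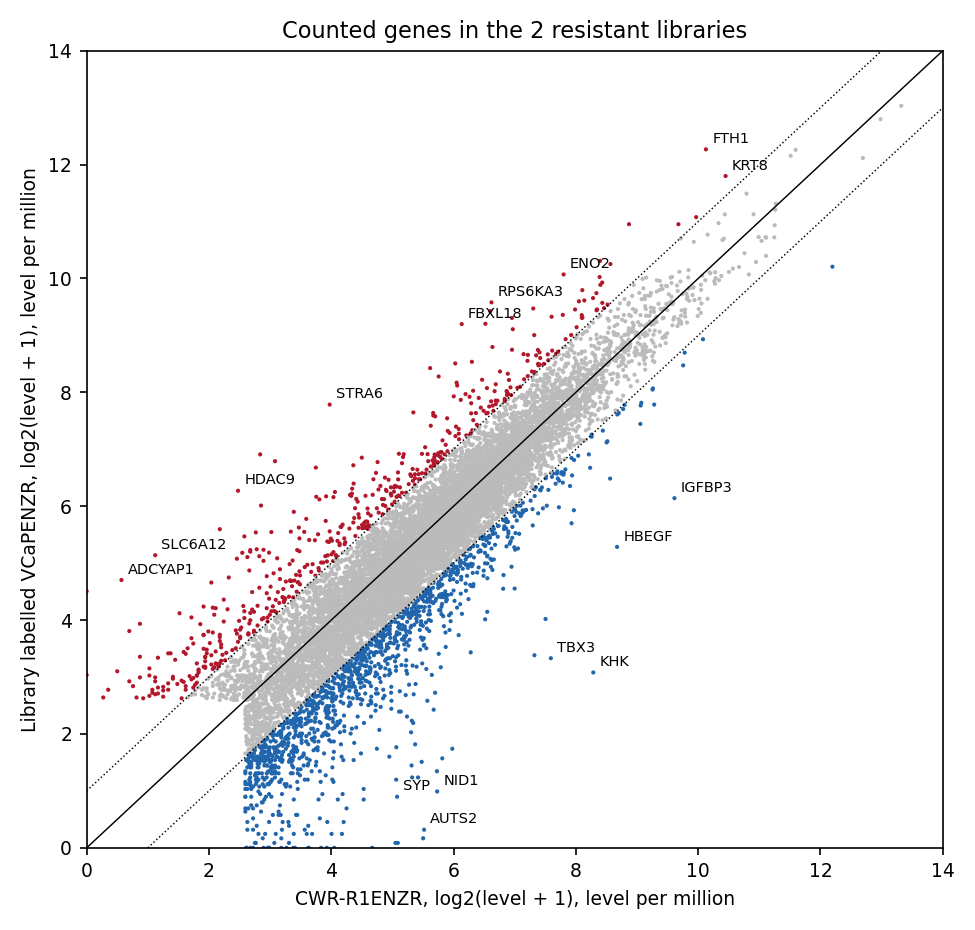
Levels of the 12078 counted genes in the library labelled VCaPENZR (vertical axis) and CWR-R1ENZR (horizontal axis), both as log2(level + 1). Red points are the 479 genes at least 2-fold higher and blue points the 1235 at least 2-fold lower in the library labelled VCaPENZR; the solid line marks equality and the dotted lines 2-fold. Blue points crowd at low levels, and FTH1 and KRT8 are red at the top.

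The genes with the highest ratios had varied functions. STRA6, the membrane receptor for retinol-binding protein, had a level of 220 in the library labelled VCaPENZR, against 14.7 in CWR-R1ENZR, 0.0557 in VCaP and 0 in CWR-R1 (14.9-fold between the resistant libraries, interval 12.995 to 17.2). Both resistant libraries therefore stood above both sensitive ones for this gene. SLC6A12, a betaine and GABA transporter, showed the same order with 34.3, 1.17, 0.669 and 0.197 (29.2-fold, interval 18.1 to 50.4). ADCYAP1, which encodes the neuropeptide PACAP, had 25.1 in the library labelled VCaPENZR and 0.484 in CWR-R1ENZR (51.9-fold, interval 24.9 to 130), and 0.780 in VCaP and 2.56 in CWR-R1. HDAC9, a class IIa histone deacetylase, had 76.3 and 4.56 in the resistant libraries (16.7-fold, interval 13.1 to 21.8), with 14.4 in VCaP and 3.16 in CWR-R1.

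Abundant genes were among the highest as well. RPS6KA3, the ERK-activated kinase RSK2, had 765 in the library labelled VCaPENZR, against 97.4 in CWR-R1ENZR, 95.1 in VCaP and 80.7 in CWR-R1 (7.85-fold, interval 7.43 to 8.30). FBXL18, an F-box protein of a ubiquitin ligase, had 587, against 69.2, 36.6 and 46.1 (8.48-fold, interval 7.94 to 9.06). For both genes the library labelled VCaPENZR was the only one of the 4 apart from the rest, which lay within a range of 2-fold of each other. PLXNA2, a semaphorin receptor, had 47.4 and 3.52 in the resistant libraries, PLLP, a membrane protein of myelin, 63.5 and 6.22, and GPNMB, a glycoprotein of lysosomes and melanosomes, 101 and 12.4. PHLDB2, a protein of the cell cortex, was different: it had 14.3 in the library labelled VCaPENZR and 0.829 in CWR-R1ENZR, but 58.8 in VCaP and 28.5 in CWR-R1. The 7SL RNA copies RN7SL1 (119 and 6.15 in the resistant libraries) and RN7SL2 (110 and 7.46) share near-identical sequence, and the readthrough transcript LOC100499484-C9ORF174 (13.001 and 0.622) overlaps other genes, so their reads cannot be assigned with certainty. Of the other 2 of the 15 highest, MT2A is described with the glucocorticoid list, and 1 gene of a multicopy family is not reported here.

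The genes with the lowest ratios included several that the library labelled VCaPENZR hardly contained. GPX1, the abundant selenium-dependent glutathione peroxidase, had 2 reads there (level 0.123), against 44.3 in CWR-R1ENZR, 246 in VCaP and 76.7 in CWR-R1 (360-fold lower, interval 99.2 to 2978). AUTS2, a regulator of neuronal development, had a level of 0.246, against 44.8, 18.8 and 11.5 (182-fold lower, interval 70.7 to 670). TMEM30B, a subunit of lipid flippases, had no read, against 24.5, 62.6 and 4.47, and was at least 132-fold lower than in CWR-R1ENZR. ADRA2A, an alpha-2 adrenergic receptor, also had no read, against 15.5, 13.4 and 6.18, and was at least 84.1-fold lower. In each of these 4 genes the library labelled VCaPENZR was the lowest of the 4 libraries.

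For KHK, TIMP3, SLIT3 and PTCHD1 CWR-R1ENZR was the library apart. KHK, ketohexokinase, which starts fructose breakdown, had 7.46 in the library labelled VCaPENZR, against 311 in CWR-R1ENZR, 12.1 in VCaP and 15.5 in CWR-R1 (41.7-fold lower, interval 34.8 to 50.4). TIMP3, an inhibitor of matrix metalloproteinases, had 1.54, against 52.0, 0.557 and 0.0658 (33.8-fold lower, interval 22.7 to 52.5). SLIT3, a secreted guidance cue, had 1 read (level 0.0616), against 32.1, 1.28 and 0.789 (521-fold lower, interval 93.1 to 20633). PTCHD1, a patched-domain membrane protein, had 1.97, against 55.3, 0 and 3.09. LGR5, a stem cell receptor that amplifies WNT signalling, had 1.36, against 39.0 in CWR-R1ENZR, 0.279 in VCaP and 11.4 in CWR-R1, and RYR2, a calcium release channel, had 2.34, against 62.1, 0.279 and 22.1. For these 2 genes CWR-R1 stood between CWR-R1ENZR and the other libraries. FBXL19-AS1 (1.36 and 41.8) is named as antisense, and without knowledge of strand its reads cannot be told from those of its partner. TNC (tenascin C), NID1 (nidogen) and the T-box repressor TBX3 were lower too, with CWR-R1 above CWR-R1ENZR. TNC had 0.0616, 33.0, 1.23 and 333 in the library labelled VCaPENZR, CWR-R1ENZR, VCaP and CWR-R1, NID1 had 0.986, 52.2, 2.06 and 90.3, and TBX3 had 9.06, 192, 754 and 403.

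**Figure D2:**
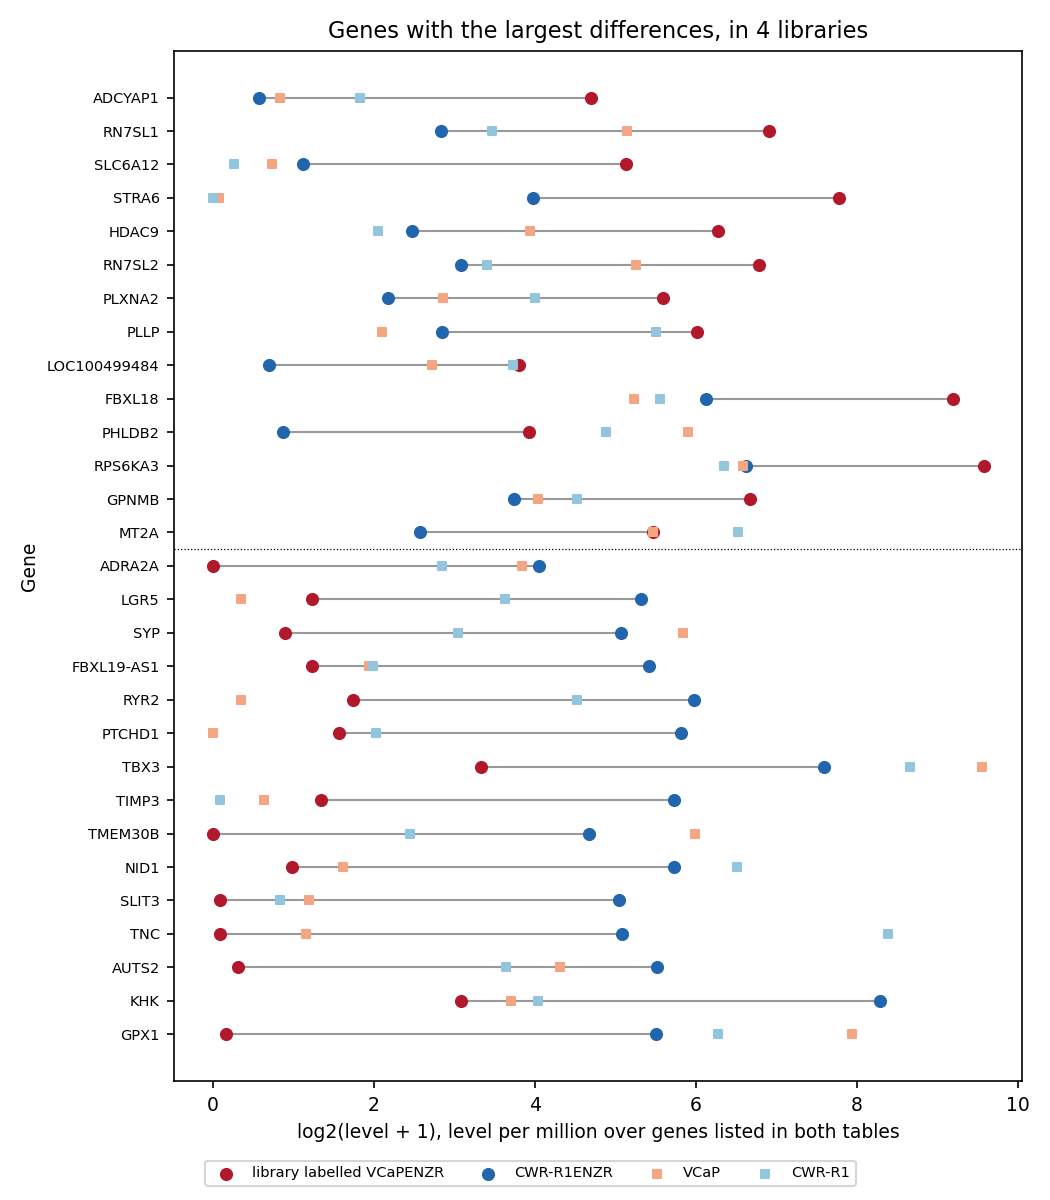
Levels of the genes with the highest (above the dotted line) and lowest (below it) log2 ratios in 4 libraries, as log2(level + 1); circles are the library labelled VCaPENZR and CWR-R1ENZR and squares VCaP and CWR-R1. The line of each gene joins the 2 resistant libraries; in RPS6KA3 and FBXL18 the library labelled VCaPENZR lies alone, and in KHK and SLIT3 CWR-R1ENZR does.

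Interferon-stimulated genes were the list most often lower. Interferons signal through transcription factors, IRF9 among them, that bind a response element (ISRE) near the start of antiviral genes. Of 52 list members, 37 were listed in both tables and 29 were counted. No counted member was at least 2-fold higher and 16 (55.2%) were at least 2-fold lower in the library labelled VCaPENZR, where 3.97% and 10.2% of all counted genes were. The median log2 ratio was -1.04, against -0.15 over all counted genes, and it lay between -1.15 and -0.89 over the alternative settings. The members were mostly of low level, where lower ratios were more frequent in general. Of the 21 members in the lowest 2 of 5 equal groups by mean level 12 were lower (57.1%, against 19.1% of all counted genes there), and of the 8 in the upper 3 groups 4 were lower (4.28% of all counted genes there).

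The promoters of 4 members that were lower are shown because they hold the letters of the ISRE core. The motif searched was GAAA, any 2 bases and GAAA, or TTTC, any 2 bases and TTTC on the other strand, over 250 bases before to 50 bases after the gene start (RefSeq, GRCh38.p14), and each match is in capitals.
IFIT5: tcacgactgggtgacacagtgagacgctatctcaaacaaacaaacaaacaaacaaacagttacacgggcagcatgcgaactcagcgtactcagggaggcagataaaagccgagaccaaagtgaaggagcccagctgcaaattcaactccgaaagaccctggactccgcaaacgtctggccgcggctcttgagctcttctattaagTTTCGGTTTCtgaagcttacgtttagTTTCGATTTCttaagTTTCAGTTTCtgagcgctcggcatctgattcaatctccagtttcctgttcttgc
MX1: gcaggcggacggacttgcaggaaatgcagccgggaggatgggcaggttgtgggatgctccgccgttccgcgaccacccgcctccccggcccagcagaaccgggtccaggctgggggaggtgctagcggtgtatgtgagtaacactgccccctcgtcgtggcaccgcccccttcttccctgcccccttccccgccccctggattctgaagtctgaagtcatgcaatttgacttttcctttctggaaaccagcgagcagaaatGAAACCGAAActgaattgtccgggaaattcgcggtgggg
IFI6: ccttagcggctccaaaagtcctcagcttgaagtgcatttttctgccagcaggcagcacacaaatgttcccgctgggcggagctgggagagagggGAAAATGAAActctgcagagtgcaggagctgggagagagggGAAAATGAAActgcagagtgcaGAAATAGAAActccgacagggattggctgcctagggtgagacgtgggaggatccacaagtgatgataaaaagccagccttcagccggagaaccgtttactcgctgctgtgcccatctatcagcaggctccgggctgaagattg
LGALS3BP: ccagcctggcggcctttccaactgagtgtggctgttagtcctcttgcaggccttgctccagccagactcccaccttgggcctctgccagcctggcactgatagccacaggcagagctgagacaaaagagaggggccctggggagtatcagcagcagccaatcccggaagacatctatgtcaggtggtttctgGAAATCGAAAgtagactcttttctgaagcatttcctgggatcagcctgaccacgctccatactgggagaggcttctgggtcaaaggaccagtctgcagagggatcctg
They lie at chr10:89414318-89414617 (plus strand), chr21:41420308-41420607 (plus), chr1:27672143-27672442 (minus) and chr17:78979874-78980173 (minus). IFIT5 and IFI6 hold 3 matches each, and MX1 and LGALS3BP hold 1 each. A match was found in 3.65% of 27305 RefSeq promoters, and in 2.48% of those of counted genes. Among interferon list members with a promoter entry, 11 of 15 that were lower and 6 of 10 counted ones that were not lower held a match. A match describes these letters in this window and not binding.

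IFIT5, an RNA-binding antiviral protein, had a level of 3.27 in the library labelled VCaPENZR, against 19.2 in CWR-R1ENZR, 15.1 in VCaP and 12.4 in CWR-R1 (5.88-fold lower, interval 4.37 to 8.05). MX1, an antiviral GTPase, had 1.91, against 11.5, 4.40 and 3.09 (6.04-fold lower, interval 4.10 to 9.17). IFI6, a mitochondrial interferon-induced protein, had 1.17, against 6.91, 4.96 and 15.8 (5.90-fold lower, interval 3.59 to 10.2). In these 3 genes the library labelled VCaPENZR was the lowest of the 4 libraries. LGALS3BP, a secreted galectin-binding glycoprotein, had 17.1, against 53.3, 138 and 25.3. The RNA sensors DDX58 (RIG-I, 8.75 and 28.5) and IFIH1 (MDA5, 2.46 and 6.29) and the transcription factor IRF9 (5.36 and 12.9) were also lower than in CWR-R1ENZR. The membrane proteins IFITM2 (8.07 and 41.1), IFITM3 (27.4 and 78.5) and IFITM1 (27.5 and 64.1) share similar sequence, so the split of reads among them is uncertain. For these, in the same order, VCaP had 0.836, 11.9 and 0, and CWR-R1 had 19.5, 45.5 and 33.6. Against the list's median went IRF1, an interferon gamma target (17.3 and 8.70), and SP100, a nuclear body protein (13.4 and 9.05), both under 2-fold. Summed over the 37 members listed in both tables, the level was 569 in the library labelled VCaPENZR and 961 in CWR-R1ENZR. It was 823 in VCaP and 619 in CWR-R1. By this sum CWR-R1ENZR was the highest, and the library labelled VCaPENZR was the lowest, near CWR-R1.

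Antigen presentation genes did not share this direction. Of 19 counted genes of MHC class I and peptide loading, 3 were at least 2-fold higher and 1 lower, with a median log2 ratio of -0.17. NLRC5, the transactivator of MHC class I genes, had 115 in the library labelled VCaPENZR, against 21.6 in CWR-R1ENZR, 2.29 in VCaP and 17.9 in CWR-R1 (5.30-fold, interval 4.70 to 5.99). B2M, the invariant light chain, had 974, against 344, 297 and 298 (2.83-fold, interval 2.74 to 2.92). The proteasome subunit PSMB10 was the member at least 2-fold lower, with 6.65 and 14.4 in the resistant libraries. NLRC5 and B2M were highest in the library labelled VCaPENZR of the 4 libraries. Chemokine, interleukin and NF-kB genes had 14 counted members, of which none was past 2-fold in either direction, and a median of -0.49.

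Several genes of growth arrest and apoptosis were past 2-fold. BAX, a pore-forming apoptosis effector, had 12.8 in the library labelled VCaPENZR, against 57.4 in CWR-R1ENZR, 26.8 in VCaP and 32.2 in CWR-R1 (4.50-fold lower, interval 3.86 to 5.27). For this gene the library labelled VCaPENZR was the lowest and CWR-R1ENZR the highest of the 4. TIGAR, a regulator of glycolysis, had 6.59 and 23 in the resistant libraries. CDKN1A, the cell cycle inhibitor p21, had 268 and 612, with 307 in VCaP and 50.8 in CWR-R1. GADD45A, a growth arrest gene, went the other way with 297 and 119.

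Cell cycle genes leaned slightly higher without passing 2-fold as a group. Of 49 counted G1/S and DNA replication genes 3 were past 2-fold higher and 0 lower (a median of 0.23), and of 49 G2/M and mitosis genes 2 were higher and 1 lower (median 0.29). RRM2, a ribonucleotide reductase subunit, had 203 in the library labelled VCaPENZR and 99.5 in CWR-R1ENZR, and CDC25B, a mitotic phosphatase, 377 and 186. CENPE, a kinetochore motor, went lower with 21.7 and 57.3. MKI67, a marker of cycling cells, had 280 and 216, under 2-fold. Of 16 counted genes in the list of inhibitors and D-type cyclins, which also holds the kinase CDK4, 1 (6.25%) was higher and 3 (18.8%) lower. Of all counted genes 3.97% and 10.2% were. The retinoblastoma gene RB1 had 48.7 and 124 (2.54-fold lower, interval 2.33 to 2.76), with 67.5 in VCaP and 70.1 in CWR-R1, and CDK4 had 77.6 and 159. The inhibitor CDKN2C was higher with 49.5 and 23.8, and the cyclin CCND3 had 97.8 and 56.6, under 2-fold.

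The EGF family and its feedback genes differed in both directions. HBEGF, a ligand of EGFR, had 38.0 in the library labelled VCaPENZR, against 407 in CWR-R1ENZR, 18.8 in VCaP and 8.09 in CWR-R1 (10.7-fold lower, interval 9.86 to 11.7). The receptor EGFR had 87.9, against 24.8, 29.6 and 45.4 (3.54-fold, interval 3.15 to 3.99). The ligand was thus highest in CWR-R1ENZR and the receptor highest in the library labelled VCaPENZR. The EGFR inhibitors ERRFI1 (633 and 123 in the resistant libraries) and LRIG1 (72.5 and 18.8) were higher as well. Of 35 counted immediate early and ERK feedback genes 3 (8.57%) were at least 2-fold higher and 5 (14.3%) lower, where 3.97% and 10.2% of all counted genes were. The list's median of -0.02 turned positive under other scalings (0.14 with both). The ERK phosphatases DUSP4 (947 and 337) and DUSP5 (250 and 72.3) were higher, and the sensitive libraries had 28.7 and 50.5 of DUSP4 and 2.06 and 1.58 of DUSP5 in VCaP and CWR-R1. DUSP2, another phosphatase, was lower with 9.43 and 159 (16.9-fold, interval 14.3 to 20.01).

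Of 11 counted genes of insulin-like growth factor signalling 1 (9.09%) was at least 2-fold higher and 3 (27.3%) were lower. Of all counted genes 3.97% and 10.2% were. The list's median of 0.49 turned negative in 1 other setting. The binding proteins of this growth factor, which hold the ligand away from its receptor, differed in both directions. IGFBP3 had 69.6 in the library labelled VCaPENZR, against 782 in CWR-R1ENZR, 784 in VCaP and 2.63 in CWR-R1 (11.2-fold lower, interval 10.6 to 11.9), and IGFBP5 had 1.29, against 32.4, 29.3 and 7.56. IGFBP2 went the other way with 408 and 203 in the resistant libraries. Among other receptor tyrosine kinases, 3 of 14 counted genes (21.4%, against 10.2% of all counted genes) were at least 2-fold lower and none higher. Of the 9 in the lowest 2 of the 5 level groups 2 were lower (22.2%, against 19.1% of all counted genes there). The list's median of -0.26 turned positive in 2 other settings. NTRK2, the BDNF receptor, had no read in the library labelled VCaPENZR and a level of 6.91 in CWR-R1ENZR, at least 37.4-fold lower.

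In the lists of TGF-beta and BMP signalling, YAP targets and matrix genes the share lower was above the 10.2% of all counted genes. Of 25 counted TGF-beta, BMP and ID genes 2 were at least 2-fold higher and 8 (32.0%) lower, with a median of -0.52. PMEPA1, a TGF-beta and androgen target, had 1.29 in the library labelled VCaPENZR, against 11.3 in CWR-R1ENZR, 1903 in VCaP and 143 in CWR-R1. ID1, an inhibitor of helix-loop-helix factors, had 220 and 621 in the resistant libraries, ID2 52.7 and 130, and INHBA, an activin subunit, 7.89 and 28.5. BMP6 (11.8 and 2.28) and the coreceptor TGFBR3 (42.1 and 14.9) were the 2 members higher. Of 16 counted YAP and TEAD targets 1 was higher and 5 (31.3%) lower (median -0.42). CTGF, a matricellular protein, had 15.2, against 181 in CWR-R1ENZR, 0.557 in VCaP and 13.9 in CWR-R1 (11.9-fold lower, interval 10.4 to 13.6), and CYR61, its relative, had 28.5 and 98.4 in the resistant libraries.

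Of 28 counted extracellular matrix and integrin genes 3 were at least 2-fold higher and 10 (35.7%) lower, with a median of -0.23 that turned positive in 1 other setting. Besides NID1, the collagens COL5A2 (5.73 and 33.8), COL1A1 (17.6 and 65.6) and COL12A1 (2.34 and 12.4) and fibronectin FN1 (224 and 537) were lower. The higher members were the proteoglycans SDC4 (198 and 49.8) and SDC1 (407 and 140) and the laminin receptor subunit ITGA6 (21.5 and 7.74). In the upper 3 of the 5 level groups, where 4.28% of all counted genes were lower, 3 of 14 TGF-beta and BMP genes (21.4%), 4 of 13 YAP targets (30.8%) and 5 of 18 matrix genes (27.8%) were lower. In the lowest 2 groups, where 19.1% were, the counts were 5 of 11, 1 of 3 and 5 of 10. Of 19 counted matrix proteases and inhibitors 3 (15.8%) were higher and 7 (36.8%) lower, where 3.97% and 10.2% of all counted genes were. In the lowest 2 level groups 6 of 10 members were lower, and in the upper 3 groups 1 of 9. TIMP1 had 6.35 and 40.6 in the resistant libraries, 0 in VCaP and 34.3 in CWR-R1, while the proteases TMPRSS4 (9.67 and 1.59) and MMP10 (6.59 and 1.17) were higher. Of 15 counted cadherins and protocadherins 1 (6.67%) was higher and 6 (40%) lower (median -0.81). Lower were 4 of the 7 in the lowest 2 level groups and 2 of the 8 in the upper 3. PCDH7 had 15.8 and 56.0, and PCDHGA2, whose exons are shared with its cluster, had 17.9 and 2.76.

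Epithelial junction genes were close in both libraries, but luminal identity genes and keratin levels were not. Of 30 counted epithelial junction genes 0 were at least 2-fold higher and 1 lower, and the median of 0.00 changed sign between settings. CDH1, E-cadherin, had 528 in the library labelled VCaPENZR, 367 in CWR-R1ENZR, 364 in VCaP and 377 in CWR-R1, and VIM, vimentin, had 3.20, 4.63, 0.223 and 7.36, too low to be counted. GRHL2, an epithelial transcription factor, had 103 and 106 in the resistant libraries. Of 20 counted luminal identity genes 4 (20%) were higher and 4 (20%) lower, where 3.97% and 10.2% of all counted genes were. KRT8 had 3564, against 1396 in CWR-R1ENZR, 437 in VCaP and 660 in CWR-R1 (2.55-fold, interval 2.51 to 2.59). KRT18, its partner, had 859, 524, 295 and 226, and KRT19 had 1267, 336, 128 and 1.51 (3.77-fold between the resistant libraries). For all 3 keratins both resistant libraries stood above both sensitive ones, with the library labelled VCaPENZR highest. Keratin reads may include those of processed copies.

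HOXB13, SPDEF and GATA2, transcription factors of the luminal list, were among its 4 lower members, while the list's median of -0.18 was near that of all counted genes. HOXB13 had 36.0 in the library labelled VCaPENZR, 85.9 in CWR-R1ENZR, 697 in VCaP and 52.3 in CWR-R1 (2.39-fold lower between the resistant libraries, interval 2.16 to 2.64). SPDEF, an ETS factor of secretory cells, had 67.5, 152, 303 and 114, and GATA2, a pioneer of androgen target genes, had 148, 305, 749 and 269. FOXA1 had 196 and 306, under 2-fold. All 4 genes were lowest in the library labelled VCaPENZR and highest in VCaP. Of 26 counted HOX genes and cofactors 2 (7.69%) were higher and 4 (15.4%) lower, with a median of -0.54. Of all counted genes 3.97% and 10.2% were. Low levels prevailed in this list, with 23 members in the lowest 2 of the 5 level groups. Of these 2 were lower (8.70%, against 19.1% of all counted genes there). Of 11 counted mesenchymal genes 3 (27.3%) were higher and 4 (36.4%) lower. LOXL2, a collagen crosslinking enzyme (33.8 and 6.08), and the transcription factors TWIST1 (52.5 and 14.02) and SNAI2 (5.85 and 1.11) were higher, and TNC was lowest.

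Androgen target genes were higher more often than lower. Of 27 counted androgen-activated genes 6 (22.2%) were at least 2-fold higher and 1 lower in the library labelled VCaPENZR, with a median of 0.26. TMPRSS2, a serine protease, had 134, against 57.5 in CWR-R1ENZR, 670 in VCaP and 25.6 in CWR-R1 (2.33-fold, interval 2.15 to 2.53). NDRG1, also a hypoxia and stress gene, had 309, against 53.05, 2318 and 67.5, and ELL2, an elongation factor, had 30.6 and 8.98 in the resistant libraries. KLK4 had 14.4 and 5.32, with 270 in VCaP and 151 in CWR-R1. KLK3, prostate-specific antigen, was near the floor, with 13 reads in the library labelled VCaPENZR (level 0.801), none in CWR-R1ENZR, a level of 455 in VCaP and 1.91 in CWR-R1. TMPRSS2, NDRG1 and KLK4 were lower in both resistant libraries than in VCaP. FKBP5, a chaperone that androgens and glucocorticoids both raise, had 182 and 106 in the resistant libraries and 126 and 874 in VCaP and CWR-R1. The 3 counted kallikreins of the secreted list (KLK11, KLK4 and KLK1) were all past 2-fold higher, KLK11 with 35.3 and 4.84.

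The list of the glucocorticoid receptor and shared targets had a median of 0.77 (0.76 to 0.94 over settings), the highest among lists with at least 8 counted members. Of 17 counted members 6 (35.3%) were at least 2-fold higher and 0 lower. The receptor gene NR3C1 itself had 46.0 in the library labelled VCaPENZR, 43.5 in CWR-R1ENZR, 13.8 in VCaP and 42.3 in CWR-R1 (1.06-fold, interval 0.949 to 1.18). The members past 2-fold were ERRFI1, the metallothioneins MT2A (43.3 and 4.97) and MT1X (8.44 and 2.49), the repressor BCL6 (159 and 58.9), KLF9 (256 and 116) and CEBPD (48.2 and 20.8). MT2A was lower in CWR-R1ENZR than in any of the other 3 libraries, which had 43.2 in VCaP and 90.8 in CWR-R1. NFKBIA (134 and 235) and PER1 (85.5 and 123) went against the median, both under 2-fold. The metallothionein MT1E is not in this list. It had 117 reads in the library labelled VCaPENZR (level 7.21) and none in CWR-R1ENZR, at least 34.8-fold higher, with 21.1 and 17.4 in VCaP and CWR-R1. Of the resistant pair it reached a level of 5 only in the library labelled VCaPENZR. Of 12 counted metallothionein and zinc handling genes 3 (25%) were higher and 2 (16.7%) lower, with a median of -0.34. Of all counted genes 3.97% were higher and 10.2% lower. Glucocorticoid exposure of the cultures is not given in the labels.

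Members of the steroid and redox lists were more often higher than lower, and AKR1C2 is in both lists. Of 14 counted genes of androgen synthesis and conjugation 5 (35.7%) were at least 2-fold higher and 1 (7.14%) lower. Of all counted genes 3.97% and 10.2% were. AKR1C2, which reduces dihydrotestosterone, had 53.9, against 11.1 in CWR-R1ENZR, 0.502 in VCaP and 1.97 in CWR-R1 (4.87-fold, interval 4.11 to 5.80), AKR1C1 had 29.5 and 10.8, and AKR1C3, which makes testosterone, had 14.2 and 29.01. These 3 genes are near-identical copies and their reads may be divided wrongly. The organic anion transporter SLCO4A1 had 370 and 77.8, and STS, steroid sulfatase, 10.7 and 33.2. Of 32 counted NRF2 targets and antioxidant enzymes 6 (18.8%) were higher and 0 lower (median 0.15). This list does not hold the glutathione peroxidase GPX1, which was among the lowest ratios of all genes (0.123 and 44.3). FTH1, the ferritin heavy chain that stores iron, was among the most abundant genes past 2-fold, with 4931, against 1117 in CWR-R1ENZR, 534 in VCaP and 1019 in CWR-R1 (4.41-fold, interval 4.34 to 4.49); it has many processed copies. The drug and conjugate pumps ABCC3 (17.5 and 3.32) and ABCC2 (17.3 and 3.94) were higher.

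Glycolysis and hypoxia genes had a median of 0.51, with 5 (13.2%) of 38 counted genes at least 2-fold higher and 1 (2.63%) lower. Of all counted genes 3.97% were higher and 10.2% lower. ENO2, neuron-specific enolase, had 1075 in the library labelled VCaPENZR, against 222 in CWR-R1ENZR, 14.2 in VCaP and 327 in CWR-R1 (4.84-fold, interval 4.67 to 5.03). TPI1, triosephosphate isomerase, had 1982, against 467, 543 and 1076 (4.25-fold, interval 4.14 to 4.36). The lactate exporter SLC16A3 (123 and 54.2) and the carbonic anhydrase CA12 (61.5 and 19.96) were the other 2 beside NDRG1. GAPDH, another glycolytic enzyme, had 2548 and 2466. EGLN3, a prolyl hydroxylase that marks HIF for decay, was lower with 4.37 and 50.1 (11.4-fold, interval 8.96 to 14.8). Of 49 counted oxidative phosphorylation genes 3 were higher and 0 lower (median 0.32), with COX5B at 429 and 123. Of 52 ribosomal protein genes 0 were past 2-fold in either direction (median -0.27).

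Neural and neuroendocrine genes were mixed. Of 8 counted neuroendocrine genes 1 (12.5%) was at least 2-fold higher and 4 (50%) lower, where 3.97% and 10.2% of all counted genes were. The 4 lower genes (SYP, SYT4, SNAP25 and SCGN) passed the level filter only through CWR-R1ENZR, the library where they were higher. The median of -1.31 moved to 0.17 with median-of-ratios factors, where SCGN (level 5.11 in CWR-R1ENZR) no longer reached the level of 5. SYP, synaptophysin, had 0.863 in the library labelled VCaPENZR, 32.7 in CWR-R1ENZR, 56.2 in VCaP and 7.30 in CWR-R1 (38.0-fold lower, interval 22.4 to 70.0). SYT4, a synaptotagmin, had no read, against 8.63 in CWR-R1ENZR, 70.8 in VCaP and 123 in CWR-R1, and was at least 46.7-fold lower. SNAP25, a vesicle fusion protein, had 1 read there and a level of 5.80 in CWR-R1ENZR. The higher member was ENO2, and PEG10 went the same way under 2-fold (490 and 324). Axon guidance and synaptic adhesion genes had 6 higher and 5 lower of 23 counted. PLXNA2 and the netrin receptor UNC5B (33.0 and 7.67) were higher, and SLIT3, PLXNB1 (44.7 and 134) and TENM4 (no read and 14.2) were lower.

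**Figure D3:**
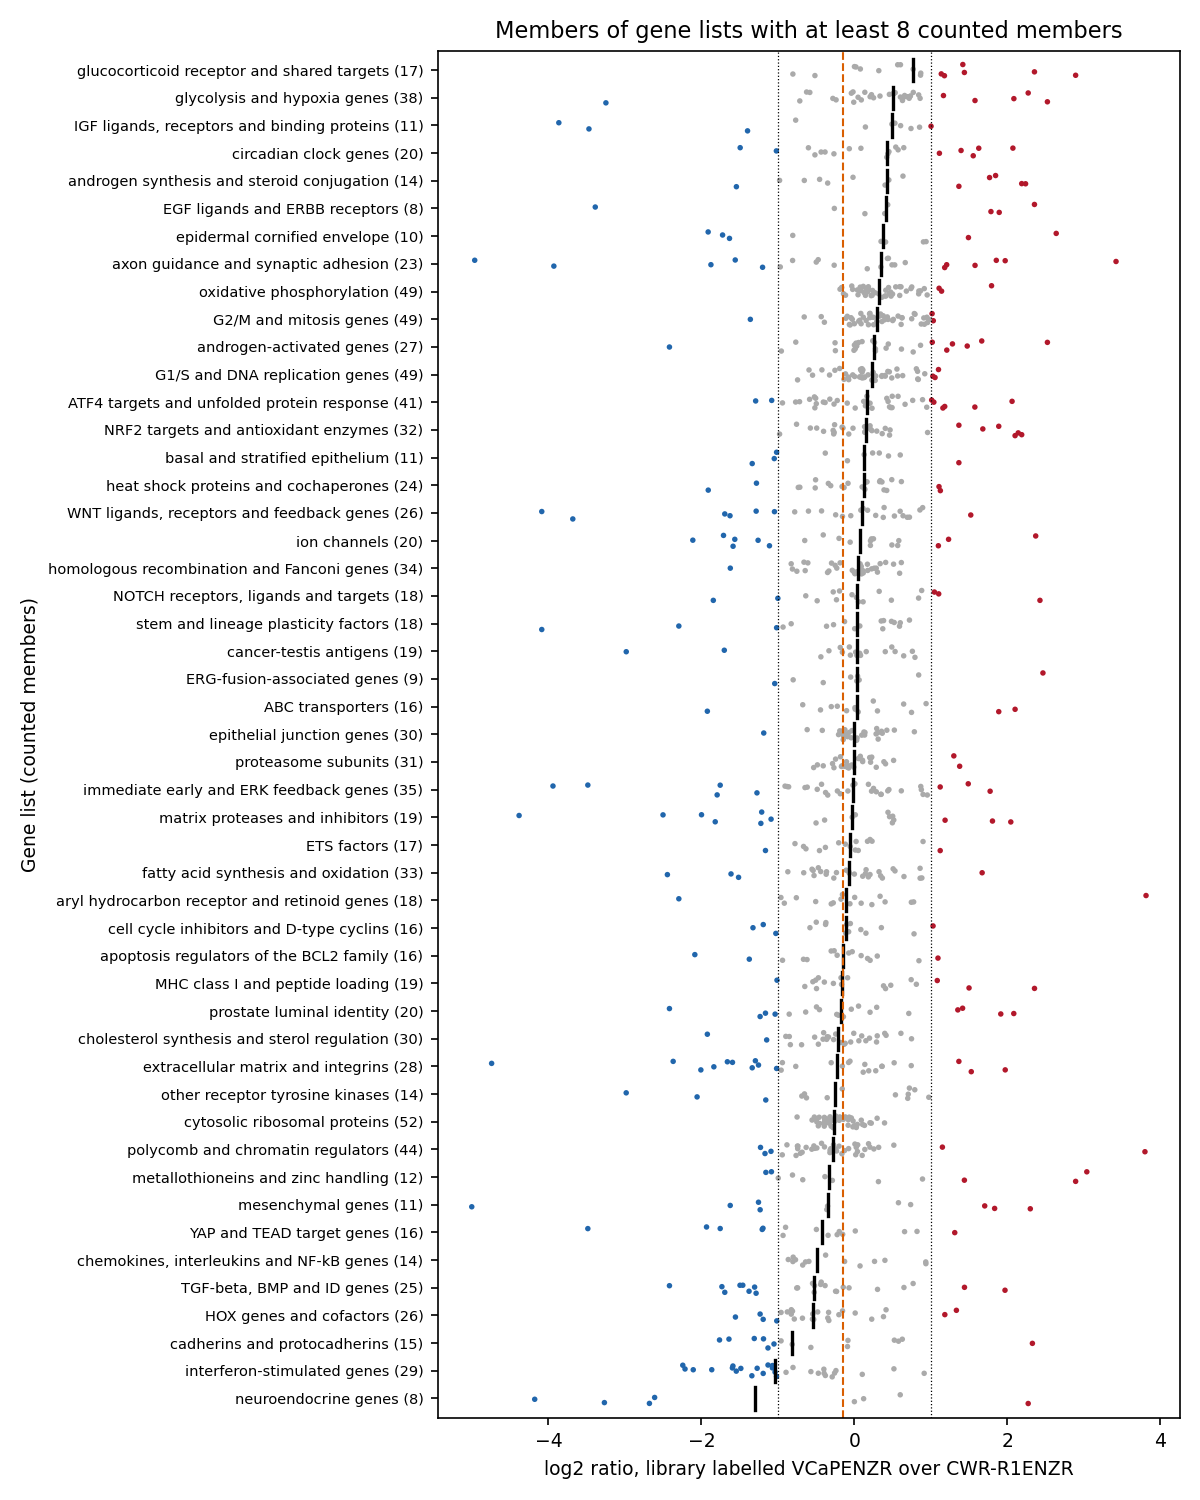
Log2 ratio of each counted member (points) of lists with at least 8 counted members, with the library labelled VCaPENZR over CWR-R1ENZR. Red points are at least 2-fold higher and blue points at least 2-fold lower; black bars are list medians, the dashed orange line is the median of all counted genes (-0.15) and the dotted lines mark 2-fold. The glucocorticoid list has the highest median of those drawn (0.77), and the interferon list has 16 blue points and no red one.

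The counts of the other lists stand beside 3.97% higher and 10.2% lower of all counted genes. ATF4 targets and the unfolded protein response had 6 (14.6%) higher and 2 (4.88%) lower of 41 counted (median 0.16). The stress regulator NUPR1 (277 and 65.7) and the tRNA synthetases AARS (656 and 220) and WARS (121 and 52.8) were higher, while the chaperones PDIA4 (217 and 533) and CRELD2 (49.4 and 106) were lower. Circadian clock genes had 5 (25%) higher and 2 (10%) lower of 20, with NPAS2 (14.2 and 2.62) and BHLHE40 (81.0 and 26.9) higher and TEF (11.6 and 34.6) lower. WNT genes had 1 (3.85%) higher and 6 (23.1%) lower of 26, WNT5A with 0.801 and 22.1. Of the 17 WNT genes in the lowest 2 level groups 5 were lower (29.4%, against 19.1% of all counted genes there). Cancer-testis antigens had 0 higher and 2 lower of 19 (10.5%, near the share of all counted genes). Heat shock proteins had 2 and 2 of 24 (8.33% each), HSPA8 with 354 and 863. Cholesterol synthesis genes had 0 higher and 2 lower of 30, and homologous recombination genes 0 and 1 of 34. Markers of other cell types were few. Of 10 fibroblast markers 4 were listed in both tables and 2 counted, with a summed level over the listed of 23.4 in the library labelled VCaPENZR and 80.5 in CWR-R1ENZR, COL1A1 making most of it. Of 10 endothelial markers 3 were listed, at a sum of 42.1 and 59.4, and of 10 blood cell markers 3, at 12.1 and 6.91. COL1A2, COL3A1, DCN, PECAM1, PTPRC and CD3E are not among the genes listed in both tables.

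Neighbouring genes differed together in a few places, a pattern looked for after the data were seen. With 11950 counted genes in chromosome order (RefSeq, GRCh38.p14, used for order only), there were 8 runs of at least 4 consecutive genes past 2-fold in 1 direction, 3 higher and 5 lower. On chromosome 7 NDUFB2, BRAF, MRPS33 and TMEM178B were higher. BRAF, the kinase above MEK and ERK, had 70.8 in the library labelled VCaPENZR, 12.5 in CWR-R1ENZR, 41.4 in VCaP and 14.4 in CWR-R1 (5.66-fold between the resistant libraries, interval 4.84 to 6.66), and MRPS33, a mitochondrial ribosomal protein, had 71.2, 14.1, 39.7 and 26.5. The counted genes on either side, ADCK2 and AGK, had log2 ratios of 0.90 and 1.00, both just short of the 2-fold limit on the log2 scale. On chromosome 12 RPL13P5, DSTNP2, LRRC23, ENO2 and ATN1 were higher. TPI1 lies beside this run with SPSB2 (22.4 and 14.6) between, and PTPN6, a protein tyrosine phosphatase (130 and 45.4), lies beyond C12orf57. RPL13P5 and DSTNP2 are named as pseudogenes, so their reads are uncertain. On chromosome 17 SPNS2, a sphingosine phosphate exporter (200 and 39.6), ALOX15, a lipoxygenase (36.9 and 5.87), and ARRB2, beta-arrestin 2 (589 and 90.8, 6.48-fold, interval 6.12 to 6.87), were higher within 5 counted genes. Between them, MYBBP1A (86.9 and 158) was lower and PELP1 (308 and 184) higher, both under 2-fold.

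Among the lower runs, on chromosome 11 IFITM2, IFITM1 and IFITM3 and their neighbour ATHL1 (12.3 and 36.4) were lower together. On chromosome 2 TMEM198 (1.29 and 15.2), OBSL1 (2.40 and 32.5), STK11IP (11.03 and 31.5) and SLC4A3 (2.77 and 8.84) were lower. On chromosome 7 the zinc finger genes ZNF138, ZNF273 and ZNF117 and the retroviral gene ERV3-1 were lower, ZNF117 with 3.94 and 36.7. The other 2 lower runs were ZBTB2, RMND1, ARMT1 and SYNE1 on chromosome 6 and ESPN, TNFRSF25, PLEKHG5 and NOL9 on chromosome 1. The remaining higher run, on chromosome 7, (UBE2D4, POLR2J4, RASA4CP and LINC00957), holds paralogous copies and is uncertain. Larger regions did not stand out. In 468 stretches of 25 genes the median log2 ratio lay between -0.77 and 0.40, and none reached 2-fold. The lowest stretches were on chromosomes 12 (PRIM1 to CDK4, most abundant SHMT2 and DCTN2), 5 (PCDHA8 to PCDHGA9, TAF7 and PCDHB2) and 7 (MEPCE to ZNHIT1, GNB2 and EPHB4). The highest were on chromosomes 16 (TMEM219 to DCTPP1, ALDOA and CORO1A), 8 (CCDC25 to TTI2, DUSP4 and GSR) and 12 (BCDIN3D to KRT86, KRT80 and LIMA1). CORO1A, an actin-binding protein, had 783 in the library labelled VCaPENZR, 281 in CWR-R1ENZR, 0.279 in VCaP and 4.08 in CWR-R1. Chromosome medians lay between -0.26 (chromosome 22) and -0.08 (chromosome 18).

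**Figure D4:**
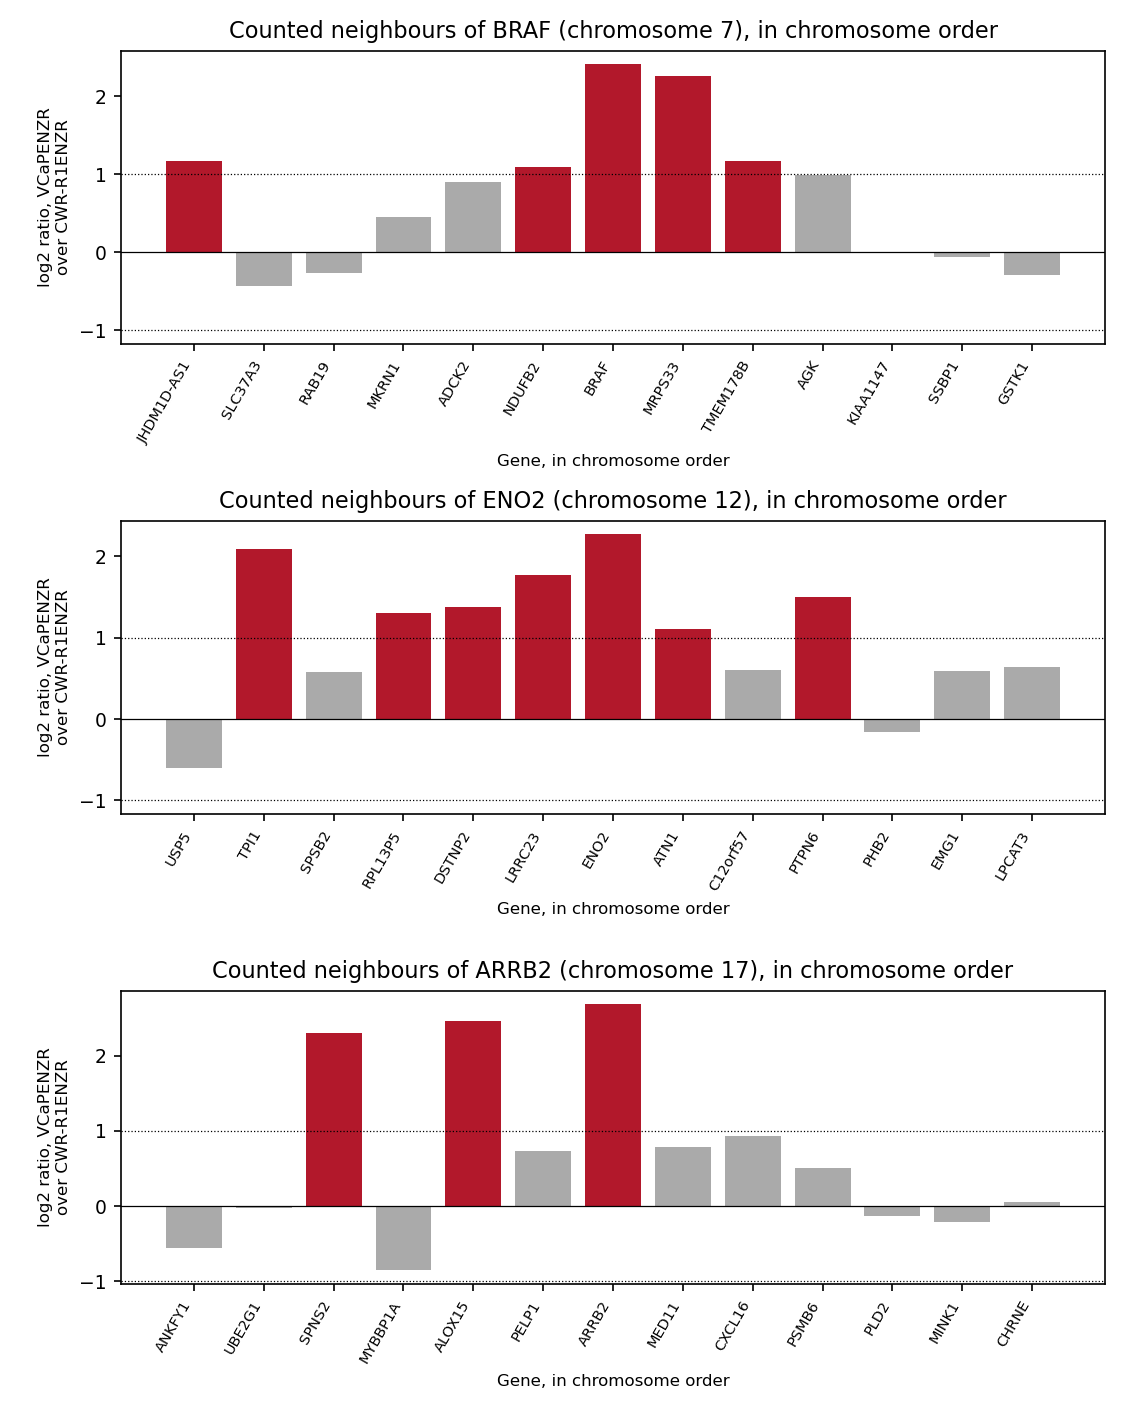
Log2 ratio of the library labelled VCaPENZR over CWR-R1ENZR for the counted neighbours of BRAF, ENO2 and ARRB2, in chromosome order; red bars are at least 2-fold higher and the dotted lines mark 2-fold. BRAF and MRPS33 stand side by side, and TPI1 and ENO2 lie in 1 region.

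The excess of lower genes lay at low levels. With counted genes split into 5 equal groups by the mean level of both libraries, 25.4% of the lowest group were at least 2-fold lower in the library labelled VCaPENZR, then 12.9%, 6.17%, 4.22% and 2.44% of the highest. The share at least 2-fold higher was 5.96%, 3.39%, 2.81%, 2.61% and 5.05% in the same order, so higher genes outnumbered lower ones in the highest group (122 and 59). Of genes listed in both tables, 105 had no read in the library labelled VCaPENZR and 36 had none in CWR-R1ENZR, although the library labelled VCaPENZR had more reads. By GC content of the longest transcript (GENCODE v29, matched for 95.5% of counted genes), the share of lower genes was 6.02% in the 1 of 5 groups with lowest GC and 15.7% in that of highest GC. The median GC was 51.8% for higher, 53.8% for lower and 48.7% for all counted genes. The part of GC in the gene list results was not tested.

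**Figure D5:**
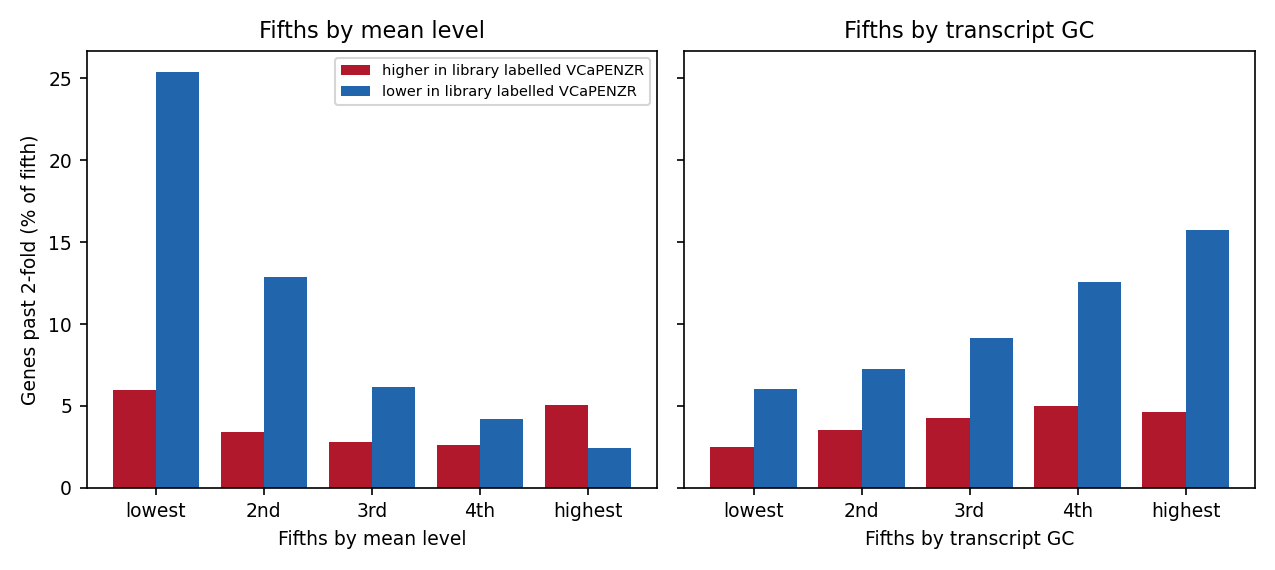
Share of counted genes at least 2-fold higher (red) and lower (blue) in the library labelled VCaPENZR than in CWR-R1ENZR, in 5 equal groups by mean level (left) and by GC of the longest transcript (right). Lower genes make up 25.4% of the lowest group by level and 2.44% of the highest, and 15.7% of the group of highest GC.

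The sensitive lines did not differ in a shared direction with the resistant pair. VCaP and CWR-R1 are separate libraries from the resistant pair, and over the 12078 counted genes their log2 ratio (VCaP over CWR-R1) had a Pearson correlation of -0.08 with that of the resistant pair, a description across genes, which are not independent. Of the 479 genes higher in the library labelled VCaPENZR, 101 (21.1%) were at least 2-fold higher and 167 (34.9%) at least 2-fold lower in VCaP than in CWR-R1. Of the 1235 lower genes the counts were 271 (21.9%) and 320 (25.9%), and over all counted genes the shares were 12.1% and 24.9%. For the 479 higher genes both shares were thus above those of all counted genes. For the 1235 lower genes only the share higher in VCaP was clearly above, and the share lower in VCaP (25.9%) was near the 24.9% of all counted genes. The median level of the 479 higher genes was 48.8 in the library labelled VCaPENZR, 16.6 in CWR-R1ENZR, 18.5 in VCaP and 22.2 in CWR-R1. That of the 1235 lower genes was 6.22, 21, 11.9 and 12.5.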

How the data were processed

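Column-purified, DNase-treated RNA was selected for poly(A) and read as paired ends by a commercial provider, per the labels' protocols. The deposited tables hold signal values; by the values themselves, each is a whole number of reads divided by a scaled library size, set in each table on its own. Per the submitters' processing notes the genome was hg19, with aligner, counter and strand setting not given in the sources used here. Deposited p-value columns and the signed fold, a score computed by the authors, were not used. Whole reads were recovered from the deposited signal within 0.02 reads for 100% of values. A count test on them needs replicates and was not possible with 1 library per line.

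Levels were rescaled to a sum of 1000000 over the genes listed in both tables, because the tables were normalized separately. Ratios used a pseudocount of 1 and a minimum level of 5. Intervals and floors cover counting error only. Lists and members were chosen with earlier results of these data known. Named genes were the 15 highest and 15 lowest log2 ratios with a summed level of at least 10, a fixed set of identity genes, up to 4 members with the largest ratio and up to 2 against the median of each list, the 5 highest genes listed in 1 table only, and the 2 most abundant genes of the 6 most extreme stretches; other genes printed were picked after their values were seen. Genes with near-identical copies are marked as uncertain. Some named genes and 1 list are not reported here. Alternatives were other scalings, pseudocounts and minimum levels. The steps were tested on simulated data for this comparison, which held counting error only. The 200 changed genes were drawn from those with a level of at least 20 in CWR-R1ENZR. Of these, 200 of 200 changed 4-fold were recovered, and 190 of 200 intervals held the true ratio. Recovery at lower levels was not tested. Python 3.11.15, pandas 2.3.3, numpy 2.4.6, scipy 1.17.1, R 4.3.3 and edgeR 4.0.16 (TMM factors only) were used.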

Additional observations from a re-analysis of the deposited data

Results flagged for a closer look

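Genes listed in only 1 of the 2 tables entered no ratio, and the 5 highest in each resistant library are given here as deposited levels. In the VCaP table, L1CAM, a neural adhesion molecule, had 19.4 in the library labelled VCaPENZR and 8.31 in VCaP. CDA, cytidine deaminase, had 8.22 and 0.114, SLCO4A1-AS1 7.03 and 0.285, and CLEC7A, a beta-glucan receptor, 6.01 and 0.114. EFCAB1 had 4.70 in the library labelled VCaPENZR and 0 in VCaP. SLCO4A1-AS1 is named as antisense to SLCO4A1, and the strand of counting is not given. In the CWR-R1 table, KANK4 had 80.6 in CWR-R1ENZR and 0 in CWR-R1. NHS had 35.4 and 3.31, C9orf173 26.3 and 2.23, CP (ceruloplasmin, a copper oxidase) 24.9 and 0.675, and RAB34 22.05 and 1.15. Of 890 genes listed only in the VCaP table, 4 reached a level of 5 in the library labelled VCaPENZR, and of 899 listed only in the CWR-R1 table, 46 reached it in CWR-R1ENZR. Their levels in the other resistant library were not analysed here.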

How the results depend on the processing

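The count of genes at least 2-fold higher (479) moved to 750 with median-of-ratios scaling, 729 with TMM, 80 at 4-fold and 156 at a level of at least 100. The count of lower genes (1235) moved to 206 at 4-fold, 640 at a level of at least 20 and 113 at a level of at least 100. The minimum of 100 and the split into 5 level groups were chosen after the data were seen, and at that minimum higher genes outnumbered lower ones. Other settings stayed within 1.5 times. The neuroendocrine median (-1.31) reversed to 0.17 with median-of-ratios scaling, 0.16 with TMM and 0.30 at a level of at least 20; fewer members were then counted. Of 192 named genes past 2-fold, 177 stayed past 2-fold under all scalings. All 192 kept their sign in every setting that gave a value. This could not have come out otherwise, because the scalings moved ratios by less than 2-fold. No paired analysis was possible because each line had 1 library. Depth limits ratios of genes with few reads, and the lack of replicates limits every ratio.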

Other observations

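Some gene groups outside the comparisons above held single genes with large ratios. Of 20 counted ion channels 3 were at least 2-fold higher and 6 lower in the library labelled VCaPENZR. KCNMA1, a calcium-activated potassium channel, had a level of 5.24, against 0.207 in CWR-R1ENZR (3 reads there; 25.3-fold, interval 8.36 to 125), and the potassium channel KCNK5 had 75.4 and 31.6. KCNN4 (4.13 and 14.2) and the calcium channel CACNA1H (43.1 and 105) were lower. Of 18 counted NOTCH genes 3 were higher and 2 lower, with HES4, a NOTCH target, at 221 and 102.

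Of 33 counted fatty acid genes 1 was higher and 3 lower. FABP5, which carries fatty acids, had 22.5 in the library labelled VCaPENZR and 127 in CWR-R1ENZR (5.64-fold lower). PDK4, which inhibits pyruvate dehydrogenase, had 17.01 and 54.1, and ECI2, an enzyme of fatty acid oxidation, had 41.3 and 12.3. Of 16 counted BCL2 family genes 1 was higher and 2 lower, BMF with 140 and 365 beside BAX. Of 44 counted polycomb and chromatin genes 2 were higher and 3 lower: beside HDAC9, RNF2 had 34.6 and 15.1, and KDM5B, a histone demethylase, had 95.9 and 217. The desmosomal protein PPL had 238 and 84.1, with 25.6 in VCaP and 10.7 in CWR-R1, while the transglutaminase TGM1 (1.73 and 9.26) was lower.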
